A study of Mus musculus with 7 samples.

Results

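The genes of the translation initiation factors (symbols that start with Eif) and elongation factors (Eef1 and Eef2 families, with Eif5a) were examined for dimethylation of lysine 79 of histone H3 (H3K79me2). They were picked by gene symbol among RefSeq protein-coding genes on chromosomes 1 to 19, leaving out the kinases, binding proteins and methyltransferases whose symbols extend those of the factors. This choice was made with earlier results of these data known. The rule found 53 genes, and 48 of them were overlapped by at least 1 of the 29397 rows, that is genomic regions with read counts, of the deposited table, in which 9249 of 20665 coding genes on those chromosomes had a row. The row with the highest mean count stood for each gene. The genes without a row were Eef1a2, Eif5a2, Eif4e1b, Eif3j2 and Eif4a3l1. Eef1aknmt, a methyltransferase that acts on elongation factor eEF1A, met the symbol rule without being a translation factor and is kept as a member.

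Initiation factors bring the initiator tRNA, the small ribosomal subunit and the capped end of an mRNA together and find the start codon, and elongation factors then carry aminoacyl-tRNAs to the ribosome and move it along the message. These genes are transcribed in nearly all cells, and macrophages that secrete cytokines and digest what they engulf depend on them. H3K79me2 is laid down by the methyltransferase DOT1L, mostly over the first part of transcribed genes.

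The samples were bone marrow-derived macrophages of C57BL/6 mice, grown for 7 to 8 days in L929-conditioned medium, which supplies M-CSF. SGC0946, a small-molecule inhibitor of DOT1L, was given at 1 µM during differentiation to 3 samples, and its solvent DMSO to the 3 controls. All 6 were called biological replicates, without saying whether each came from its own mouse or culture, so p-values measure the spread between these samples. The labels mention both WT and KO mice in the growth protocol and do not assign them to samples, and the 1 input sample was not used here.

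Library totals over all rows were 2.95 to 3.13 M counts with SGC0946 and 16.7 to 19.5 M counts with DMSO, so 17.1% of the DMSO total was kept. The labels name no spike-in. Each gene was therefore measured by its unscaled count and by its share of its library's counts, and a higher share means only that a gene's count fell by less than its library's total. Without a spike-in, less of the mark and a shallower or thinned library cannot be told apart in the unscaled counts, so a percentage kept is one of read counts. In bulk chromatin, fewer cells that carry the mark and less of the mark per cell cannot be told apart. All 8 macrophage marker genes had a row, at 84.5 to 339 DMSO counts per kb, against 3 of 26 markers of other cell types, at 2.67 to 9.33 DMSO counts per kb. Of the macrophage markers, Cd68 is overlapped by a row that also overlaps Eif4a1 and Senp3, so the counts of that row cannot be assigned to Cd68 alone.

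Unscaled H3K79me2 read counts fell over all 48 genes, by very different amounts. The genes kept between 10.1% (Eif2b5) and 50.2% (Eif3a) of their DMSO count, with a median of 15.5%, against a median of 14.1% over the 9249 coding genes with a row. Every gene was called lower by edgeR's quasi-likelihood test on unscaled counts (Benjamini-Hochberg adjusted p under 0.05), and 99.9% of all tested coding genes were called lower in the same test. In all 48 the unscaled counts did not overlap between the groups, against 99.8% of coding genes, and in 40 of 48 the shares did not overlap, against 69.6%. As shares of the library, 14 of the 48 genes rose, 20 fell and 14 were not called, against 9.91% of coding genes called higher and 51.1% called lower. That is 29.2% of the factor genes higher and 41.7% lower. The rises depend on the scaling, since all 14 remained with TMM factors, size factors or the DESeq2 test, and Eif3a alone remained higher when libraries were scaled on their sparsest 25% of regions by mean count per kb. Under that scaling 10 of the 14 were not called and 3 (Eif2s1, Eif4g2 and Eif1a) were called lower. With TMM factors 17 genes were higher and 13 lower, with size factors 17 and 12, with the DESeq2 test 14 and 9, and with sparse-region scaling 1 and 35. The median log2 change of share was -0.14 over the factor genes and -0.29 over all tested coding genes, and the gap between both medians was 0.16, 0.16, 0.14 and 0.16 under those 4 alternatives.

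**Figure D1:**
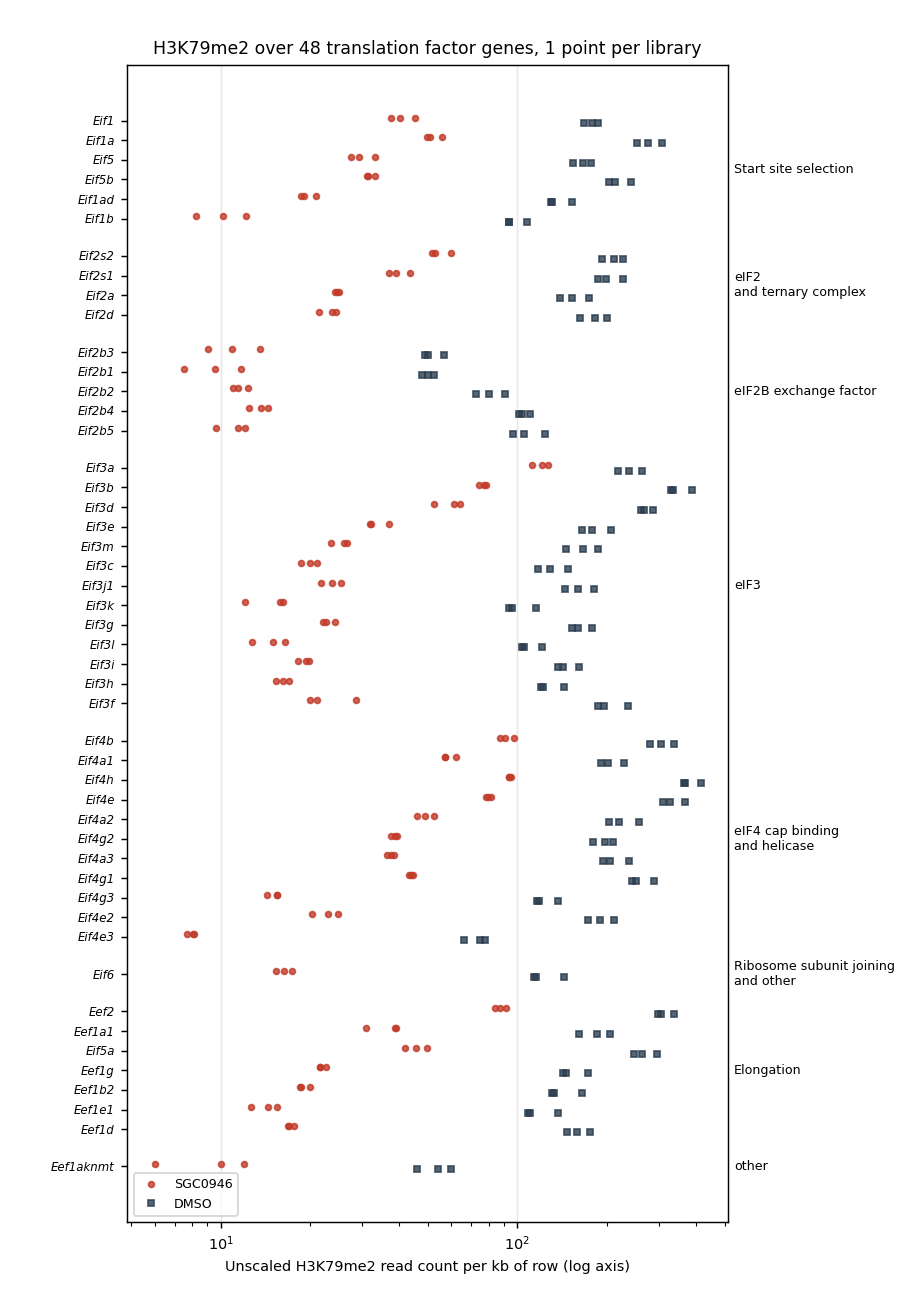
Unscaled H3K79me2 read counts per kb of row (log axis) in each library for the 48 genes, grouped by role, with SGC0946 libraries as red circles and DMSO libraries as dark squares. Every SGC0946 point lies left of every DMSO point of its gene, and the gap is narrowest for Eif3a, which kept 50.2%.

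Taken as a whole, the factor rows held more of the SGC0946 libraries. Their summed count was 0.703%, 0.694% and 0.728% of the library in the SGC0946 samples, against 0.578%, 0.591% and 0.587% in the DMSO samples. The groups did not overlap. The mean was 0.708% ± 0.0177 with SGC0946 and 0.586% ± 0.00702 with DMSO (SD, n = 3 each), and an exact 2-sided permutation test gave p = 0.1, the smallest that 3 against 3 libraries allow. Eif3a made up much of this difference, which was 0.123 percentage points with its row and 0.0517 without it. Summed counts were 21456 ± 588 with SGC0946 and 103952 ± 9481 with DMSO (SD, n = 3 each), so 20.6% was kept.

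The rows lay mostly at the 5′ ends of the genes. RefSeq start sites were at hand for 38 of the 48 genes, and in 29 of these (76.3%) the row covered the start, against 3555 of 7526 coding genes with a row (47.2%). These percentages are not at like depth or row length. Rows of the 48 genes had a median length of 8136 bp and a median mean count of 789, against 6022 bp and 392 over the 9249 coding genes. The 5′ edge of the row lay at a median of -136.5 bp and its 3′ edge at 5076.5 bp relative to the start, and in 26 genes its 5′ edge lay within 300 bp of the start. The row covered a median of 53.1% of the gene span and over 90% in 8 genes. Row length ran from 500 bp (Eef1aknmt) to 66046 bp (Eif3h). Coordinates are on mm10 throughout, and exons, introns and untranslated parts were not separated.

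**Figure D2:**
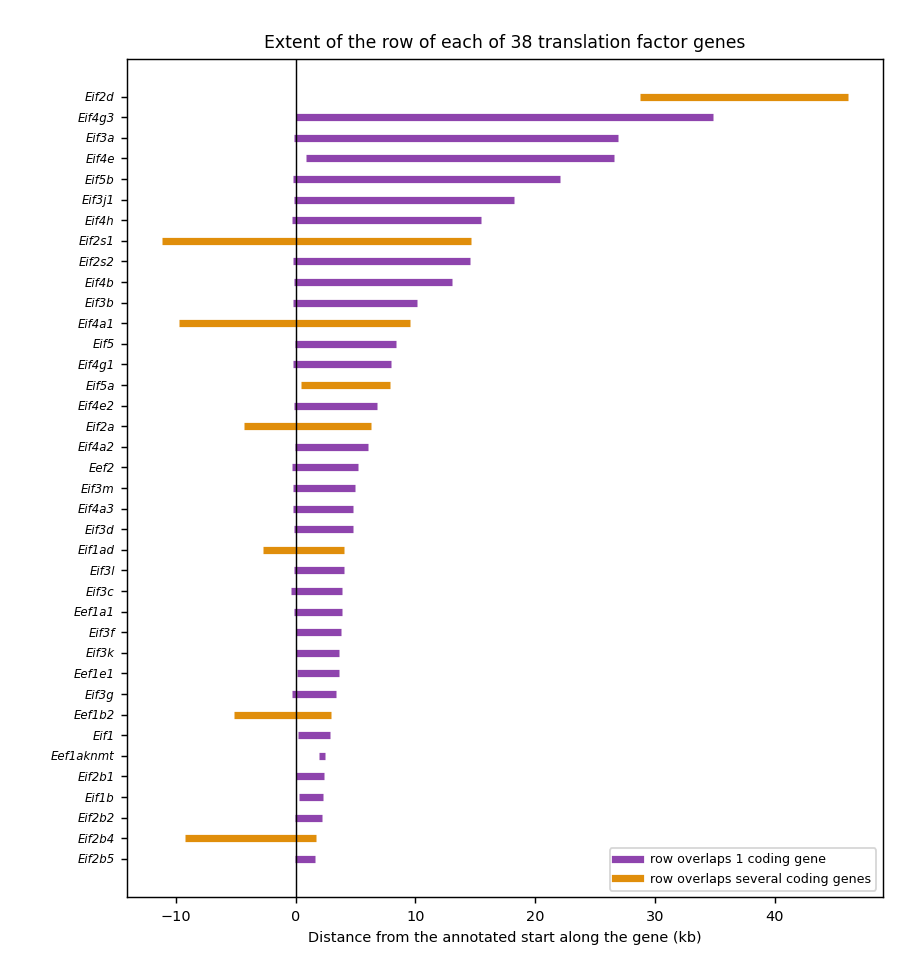
Extent of the row of each of 38 genes along the gene, in kb from the annotated start, sorted by the 3′ end of the row. Purple bars overlap 1 coding gene and orange bars several, and most bars begin close to the vertical line at the start while that of Eif2d begins 28721 bp downstream.

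In 10 genes the row also overlapped other coding genes, and its counts cannot be assigned to the factor alone. These were Eif4a1 (with Cd68 and Senp3), Eif2s1 (Atp6v1d), Eif1a (Tmed7), Eif5a (Gps2), Eif2a (Serp1), Eif1ad (Banf1), Eef1b2 (Ndufs1), Eif3i (Tmem234), Eif2b4 (Snx17 and Zfp513) and Eif2d (Rassf5). Cd68 encodes a macrophage lysosomal protein, so the Eif4a1 row holds a marker of these cells. Of the 38 genes with a row of their own, 11 rose, 15 fell and 12 were not called, and the 10 shared rows gave 3, 5 and 2.

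Each of the letter patterns searched stood at least slightly more often in the promoters of these genes than in those of coding genes with a row, and these differences were not tested. The E-box CACGTG, which reads the same on both strands and is bound by MYC, USF and TFE3-type factors, stood in 9 of the 38 RefSeq promoters of 300 bases (23.7%), against 10.6% of 7526 promoters of coding genes with a row and 7.97% of all 16457. The stretch around it is printed for the 6 genes described in detail below that carry it, chosen after their values were seen, 5′ to 3′ on the gene's strand with the motif in capitals, from RefSeq on GRCm38.p6.
Eef2, chr10:81176558-81176623, plus strand: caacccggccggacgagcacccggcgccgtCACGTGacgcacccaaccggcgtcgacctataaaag
Eif3a, chr19:60790666-60790701, minus strand: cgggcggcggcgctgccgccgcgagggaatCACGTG
Eif4a1, chr11:69672577-69672642, minus strand: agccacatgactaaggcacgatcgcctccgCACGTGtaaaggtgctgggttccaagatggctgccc
Eif4h, chr5:134639470-134639535, minus strand: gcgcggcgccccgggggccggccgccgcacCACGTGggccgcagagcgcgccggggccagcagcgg
Eif1b, chr9:120492552-120492617, plus strand: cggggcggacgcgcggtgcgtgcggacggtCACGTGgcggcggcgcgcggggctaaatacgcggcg
Eif3f, chr7:108934317-108934382, plus strand: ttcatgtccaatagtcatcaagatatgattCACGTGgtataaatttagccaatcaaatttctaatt

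The first base of the motif lay 43 bp before the annotated start in Eef2, 189 bp before it in Eif4a1, 96 bp before it in Eif4h, 24 bp before it in Eif1b and 68 bp before it in Eif3f, and 22 bp after it in Eif3a. The motif did not mark one direction: of the 9 genes with it, 4 rose in share, 2 fell and 3 were not called, and of the 29 without it, 8 rose, 12 fell and 9 were not called. Genes with it kept a median of 17.5% (10.4% to 50.2%) and genes without it 15.2% (10.1% to 29.9%). The 17.5% is the value of Eef1aknmt, which had only 5, 3 and 6 counts with SGC0946. Its neighbours in order were Eif4g1 (16.8%) and Eif4h (24.6%). Other letters were searched on both strands. GGGCGG stood in 71.1% of the factor promoters, against 65.9% for coding genes with a row and 47.3% of all promoters. CCGGAAG stood in 28.9%, against 21.5% and 12.3%, and TATAAA in 10.5%, against 6.27% and 13.5%. A C within 5 bases of the start followed by at least 4 pyrimidines, the pattern of the terminal oligopyrimidine tract that many translation machinery mRNAs carry, stood in 21.1%, against 20.1% and 19.1%. A match to letters is not a bound site.

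In the group named for start site selection, which also holds Eif5b and Eif1ad, 2 rose in share, 3 fell and 1 was not called of 6. That is 33.3% higher and 50% lower, against 9.91% and 51.1% of all tested coding genes. The closest relatives in this group lay at opposite ends. Eif1, whose protein guards the fidelity of start codon choice, had 118, 98 and 105 counts with SGC0946, against 438, 466 and 487 counts with DMSO, and kept 23.1%. Its paralog Eif1b (chr9:120492851-120494907) had 25, 21 and 17 counts with SGC0946, against 193, 193 and 221 counts with DMSO, and kept 10.4%. The groups of both genes were far apart in counts. The log2 change of share was 0.43 ± 0.10 (SE) for Eif1, with an edgeR adjusted p of 0.000405, and -0.72 ± 0.19 for Eif1b, with an edgeR adjusted p of 1.4e-03. The other genes of the group kept 18.7% (Eif1a), 18.1% (Eif5), 14.5% (Eif5b) and 14.1% (Eif1ad). Eif1a rose in share, Eif5b and Eif1ad fell, and Eif5 was not called. Eif5b and Eif1ad were not called with TMM or size factors, where Eif5 was called higher. In the DESeq2 test the 2 rises of this group remained and none of its genes was lower, with an adjusted p of 0.0536 for Eif1b.

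The eIF2 complex, a GTPase that delivers the initiator tRNA, had 2 subunit genes on these chromosomes, and both rose in share with library totals, while with sparse-region scaling Eif2s2 was not called and Eif2s1 was called lower. Eif2s2, the beta subunit (chr2:154878354-154893107), had 879, 763 and 782 counts with SGC0946, against 2845, 3116 and 3353 counts with DMSO. Eif2s1, the alpha subunit phosphorylated in the integrated stress response, had 1122, 957 and 1011 counts with SGC0946, against 4825, 5126 and 5855 counts with DMSO. Eif2s2 kept 26.0% and Eif2s1 19.5%, with shares that did not overlap between groups in either gene. The log2 change of share was 0.61 ± 0.05 for Eif2s2 (edgeR adjusted p = 2.7e-17) and 0.20 ± 0.04 for Eif2s1 (edgeR adjusted p = 2.5e-04). Eif2d, a factor that can deliver tRNA without eIF2, fell in share at 12.8% kept, in a row that begins 28721 bp downstream of the start and extends over Rassf5. A smaller row of Eif2d (chr1:131153372-131155151) kept 19.9% with a log2 change of share of 0.22 that was not called (edgeR adjusted p = 0.567). Eif2a was not called at 15.8%.

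The 5 genes of eIF2B, the exchange factor that reloads eIF2 with GTP, were the sparsest of the groups with more than 1 gene, at 50.0 to 109 DMSO counts per kb and a median of 81.4. None rose in share, Eif2b4 and Eif2b5 fell and 3 were not called. Of all tested coding genes 9.91% were called higher and 51.1% lower, against 40% lower in this group. Only 15.7% of the Eif2b4 row lay in that gene, and the row also overlaps Snx17 and Zfp513. Eif2b5, the catalytic epsilon subunit (chr16:20498774-20500433), had 16, 20 and 19 counts with SGC0946, against 175, 161 and 206 counts with DMSO. Every SGC0946 library was far below every DMSO library, and the 10.1% kept was the least of the 48 genes. Its log2 change of share was -0.75 ± 0.20 (edgeR adjusted p = 1.9e-03), a call lost in the DESeq2 test (adjusted p = 0.0648). The 3 genes not called had 23 to 25.3 mean counts with SGC0946 and 114 to 178 with DMSO, and all 3 fell in unscaled counts.

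The 13 genes of eIF3, the large scaffold that holds the small subunit, split into 3 that rose, 6 that fell and 4 not called. That is 23.1% higher and 46.2% lower, against 9.91% and 51.1% of all tested coding genes. Eif3a, the largest core subunit (chr19:60763801-60790858, 90.9% of the gene), had 3447, 3043 and 3281 counts with SGC0946, against 5898, 6427 and 7127 counts with DMSO. Each SGC0946 library held fewer counts than every DMSO library, and its share of the library was higher than in every DMSO library. The log2 change was -0.99 in unscaled counts (edgeR adjusted p = 2.1e-24) and 1.56 ± 0.04 in share (edgeR adjusted p = 1.5e-44). By change of share Eif3a was number 21 of 7738 coding genes with a mean of at least 50 counts, while the next factor gene, Eif4b, was number 165.

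Eif3b, another core subunit (chr5:140419103-140429414), had 799, 807 and 766 counts with SGC0946, against 3398, 3449 and 3993 counts with DMSO, and kept 21.9%. Its log2 change of share was 0.36 ± 0.05 (edgeR adjusted p = 1.3e-09). Eif3d, a subunit that can bind the cap itself, was close to it at 21.8% kept. At the other end, Eif3f (chr7:108934432-108938230) had 76, 109 and 80 counts with SGC0946, against 712, 745 and 896 counts with DMSO. It kept 11.3%, and its log2 change of share was -0.60 ± 0.10 (edgeR adjusted p = 1.6e-06). Subunits of 1 complex thus kept between 11.3% and 50.2%. The share also fell over Eif3j1, Eif3g, Eif3l, Eif3i and Eif3h, which kept 12.6% to 14.6%, but Eif3j1, Eif3g and Eif3l were not called with TMM factors, size factors or the DESeq2 test. With these 3 alternatives 4, 4 and 3 eIF3 genes were higher and 3 were lower each time. Eif3e, Eif3m, Eif3c and Eif3k were not called at 14.4% to 18.3%.

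The 11 genes of the eIF4 group, which bind the cap and unwind the message, had the highest median kept (19.7%) of the groups with more than 1 gene, with 6 that rose, 3 that fell and 2 not called. That is 54.5% higher and 27.3% lower, against 9.91% and 51.1% of all tested coding genes. The median log2 change of share of the eIF4 genes was 0.20. Under sparse-region scaling none of these genes was higher and 6 were lower. Eif4b, the RNA-binding cofactor of the helicase (chr15:102073606-102086824), had 1206, 1154 and 1290 counts with SGC0946, against 3716, 4033 and 4458 counts with DMSO. Eif4h, a shorter cofactor of the same helicase (chr5:134623916-134639672), had 1482, 1473 and 1496 counts with SGC0946, against 5759, 5807 and 6540 counts with DMSO. Counts of both cofactors were lower in every SGC0946 library than in any DMSO library, while their shares were higher in every SGC0946 library. Eif4b kept 29.9% with a log2 change of share of 0.81 ± 0.05 (edgeR adjusted p = 1.3e-24), and Eif4h kept 24.6% with 0.53 ± 0.04 (edgeR adjusted p = 8.3e-18).

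Eif4a1, the main helicase gene (chr11:69662887-69682160, a row shared with Cd68 and Senp3), had 1201, 1099 and 1097 counts with SGC0946, against 3701, 3896 and 4405 counts with DMSO. It kept 28.3%, with a log2 change of share of 0.73 ± 0.04 (edgeR adjusted p = 2.8e-23). Its paralog Eif4a2 had 318, 279 and 297 counts with SGC0946, against 1233, 1337 and 1566 counts with DMSO, and kept 21.6%. Eif4a3, a helicase of the exon junction complex rather than of initiation, kept 17.6% and was not called. The rows of the 3 related helicase genes thus differed in what they kept, but only 28.5% of the Eif4a1 row lay in that gene.

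The cap-binding proteins spread as widely. Eif4e, the cap-binding protein whose activity is held back by the 4E-BPs (chr3:138527090-138552808), had 2042, 2018 and 2101 counts with SGC0946, against 7944, 8407 and 9465 counts with DMSO. Eif4e2, a cap-binding relative that takes part in translational repression (chr1:87213766-87220673), had 172, 141 and 159 counts with SGC0946, against 1200, 1313 and 1467 counts with DMSO. Eif4e3, the third relative (chr6:99656119-99665810), had 79, 75 and 78 counts with SGC0946, against 728, 640 and 753 counts with DMSO. Eif4e kept 23.9%, Eif4e2 11.9% and Eif4e3 10.9%, so the share of the main cap-binding gene rose and those of its relatives fell. Their log2 changes of share were 0.48 ± 0.04 (Eif4e, edgeR adjusted p = 4.1e-17), -0.53 ± 0.08 (Eif4e2, edgeR adjusted p = 4.9e-08) and -0.64 ± 0.11 (Eif4e3, edgeR adjusted p = 6.0e-07). Of the genes of the eIF4G scaffold family, Eif4g2 rose at 19.7% kept, Eif4g3 fell at 12.2%, and Eif4g1 was not called at 16.8%. Eif6, which keeps free large subunits apart from small ones, fell in share at 13.1% kept, a call lost with TMM factors, size factors and the DESeq2 test.

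Among the 7 elongation genes Eef2 rose in share, 4 fell and 2 were not called, with a median log2 change of share of -0.26. The 57.1% that fell and this median were near the 51.1% and -0.29 of all tested coding genes. Eef2, the translocase that moves the ribosome along the message (chr10:81176342-81181833), had 463, 481 and 505 counts with SGC0946, against 1635, 1671 and 1858 counts with DMSO. It kept 28.1%, with a log2 change of 0.72 ± 0.06 in share (edgeR adjusted p = 1.6e-17) and -1.83 in unscaled counts (edgeR adjusted p = 2.0e-60). Eef1a1, the carrier of aminoacyl-tRNAs (chr9:78477853-78481852), had 155, 124 and 156 counts with SGC0946, against 646, 741 and 824 counts with DMSO. It kept 19.7%, and its log2 change of share of 0.21 ± 0.09 was not called, with an edgeR adjusted p of 0.0788 and overlapping shares. Without DMSO replicate 2 or SGC0946 replicate 2 it was called higher, at 0.24 (edgeR adjusted p = 0.0284) and 0.30 (edgeR adjusted p = 0.0127). The call also turned with the scaling, to higher with TMM factors (0.34, edgeR adjusted p = 0.00177) and size factors (0.36, edgeR adjusted p = 0.00148) and to lower with sparse-region scaling (-0.48, edgeR adjusted p = 0.00378). Eef1a1 has many processed copies elsewhere in the genome, and the treatment of reads that map to several places was not given in the sources used here, so its counts are uncertain.

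The 3 genes of the exchange complex that reloads eEF1A all fell in share with library totals, and of the 7 elongation genes 4 were lower in that fit, 3 with TMM factors, 2 with size factors and 1 in the DESeq2 test. Eef1d, the delta subunit (chr15:75900833-75909507), had 154, 146 and 147 counts with SGC0946, against 1380, 1276 and 1530 counts with DMSO. It kept 10.7%, with a log2 change of share of -0.68 ± 0.08 (edgeR adjusted p = 2.6e-11). Eef1b2 kept 13.4% and Eef1g 14.3%, and both fell in share with library totals. Eef1d stayed lower with TMM factors, size factors and the DESeq2 test, while Eef1g was called in none of them. Eef1b2 was not called with size factors or the DESeq2 test. Only 36.7% of the Eef1b2 row lay in that gene, and the row also overlaps Ndufs1. Eef1e1, a member of the aminoacyl-tRNA synthetase complex, also fell in share, by a log2 change of -0.51. Its call was lost in the DESeq2 test. Eif5a, which helps the ribosome past stalling sequences, was not called at 17.0% kept, and Eef1aknmt, the only member with a mean below 50 counts, was not called at 17.5%.

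**Figure D3:**
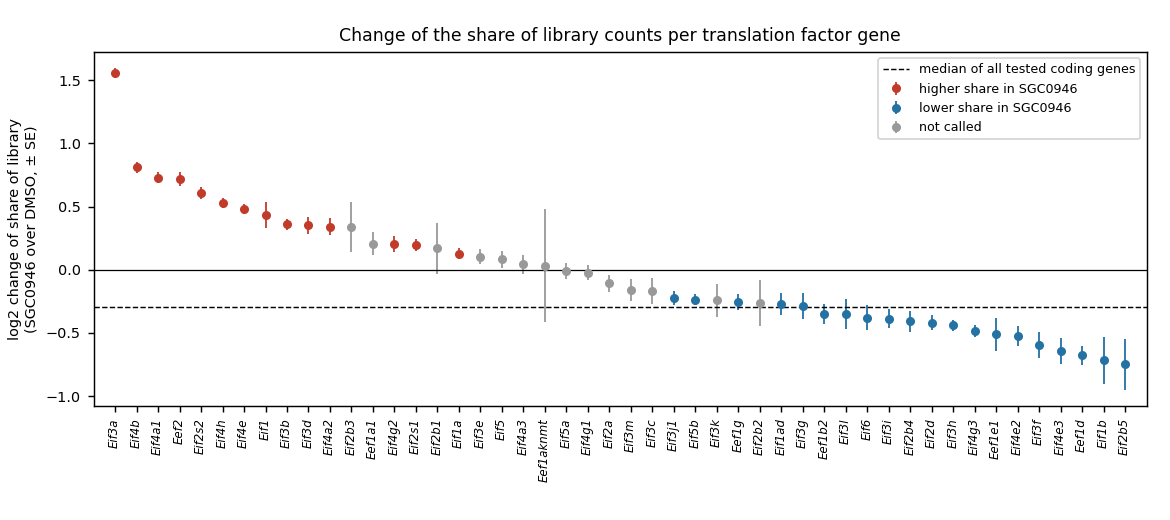
Change of the share of library counts per gene, as log2 of SGC0946 over DMSO with its standard error, in red where called higher, blue where called lower and grey where not called. Eif3a stands at 1.56 and Eif2b5 at -0.75, and the dashed line marks the median of all tested coding genes at -0.29. With sparse-region scaling Eif3a alone stayed higher.

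Ratios of 2 genes within a library do not depend on the scaling between libraries. Of 13 pairs of relatives, partners or factors of like name, 11 had ratios that did not overlap between SGC0946 and DMSO libraries. The pairs were chosen with earlier results of these data known. Shares of single coding genes did not overlap in 69.6%, and no such share was computed over other pairs of genes, so the count says nothing particular about these pairs. For each of the 11 the exact 2-sided permutation p was 0.1, the smallest possible with n = 3 per group, and 0.118 after Benjamini-Hochberg adjustment over the 13 pairs, so none could pass 0.05. The largest shift was Eif1 over Eif1b, at 5.19 ± 0.857 with SGC0946 and 2.30 ± 0.108 with DMSO (SD, n = 3 each), a log2 difference of 1.16. Eif4e2 over Eif4e moved the other way by nearly as much, at 0.0766 ± 0.00722 with SGC0946 and 0.154 ± 0.00268 with DMSO, a log2 difference of -1.01. The ratios of both helicase relatives to Eif4a1, whose row is shared with Cd68 and Senp3, were also lower with SGC0946. Eif4a3 over Eif4a1 was 0.166 ± 0.00575 with SGC0946 and 0.266 ± 0.00428 with DMSO, and Eif4a2 over Eif4a1 was 0.263 ± 0.00856 with SGC0946 and 0.344 ± 0.0112 with DMSO.

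Other pairs shifted too. Among the genes of these pairs, the rows of Eif2s1, Eef1b2 and Eif5a also overlapped other coding genes. Eif2s2 over Eif2s1 was 0.785 ± 0.0119 with SGC0946 and 0.590 ± 0.0176 with DMSO, a log2 difference of 0.41. Eef1a1 over Eef2 was 0.300 ± 0.0392 with SGC0946 and 0.427 ± 0.0279 with DMSO, a log2 difference of -0.51. The remaining non-overlapping pairs had log2 differences of 0.23 (Eif4g2 over Eif4g1), -0.28 (Eif4h over Eif4b), -0.31 (Eif5b over Eif5), -0.33 (Eef1d over Eef1b2) and -0.46 (Eif4g3 over Eif4g1). Eef1g over Eef1b2 (0.09, exact permutation p = 0.3) and Eif5a over Eif5 (-0.09, exact permutation p = 0.5) overlapped between the groups. Leaving out 1 library gave 0.0519 to 0.14 for Eef1g over Eef1b2 and -0.0179 to -0.166 for Eif5a over Eif5. Their groups no longer overlapped without SGC0946 replicate 1 (0.14) and without SGC0946 replicate 3 (-0.166), each with an exact permutation p of 0.1.

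**Figure D4:**
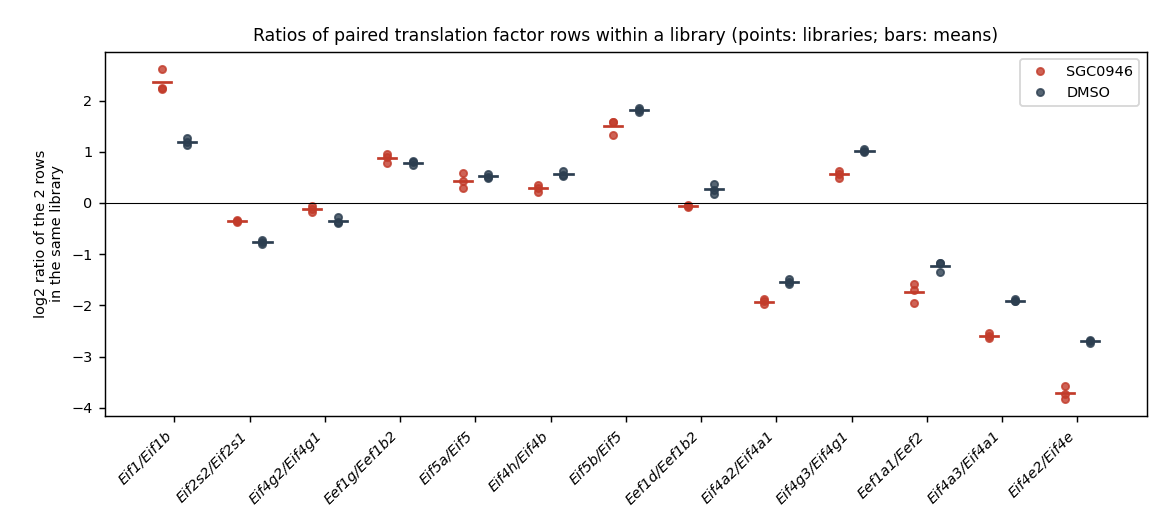
Log2 ratio of 2 factor rows within the same library for 13 pairs, with SGC0946 libraries (red) left of DMSO libraries (dark) and bars at the group means. The groups do not overlap in 11 pairs, and the widest gaps are Eif1 over Eif1b (1.16) and Eif4e2 over Eif4e (-1.01).

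Beyond the row that stood for each gene, 22 of the 48 genes had 70 further rows, 30 of them 500 bp long. Of these 55 were tested, none rose in share and 2 fell, against 6.16% of all regions called higher and 23.3% called lower. The call rates are not at like depth. The median of the mean counts of the further rows was 15, and 9 of the 70 reached 50, against 11055 of all 29397 regions. Both falls were in the scaffold gene Eif4g3, which had 22 rows in all. Its further rows at chr4:138031152-138040973 and chr4:138053401-138056436 kept 13.0% and 10.8%, with log2 changes of share of -0.39 (edgeR adjusted p = 0.00185) and -0.65 (edgeR adjusted p = 0.0339). The 6 further rows of Eif4g3 with a mean of at least 50 counts kept 10.8% to 17.3%, and the 3 such rows of Eif2d, Eif3e and Eif3m kept 16.3% to 19.9%.

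Genes that were densest in H3K79me2 with DMSO kept more of their count. The factor genes ran from 50.0 to 383 DMSO counts per kb with a median of 166, against a median of 109 over the coding genes with a row, and the 3 densest were Eif4h (383), Eif3b (350) and Eif4e (335). Spearman's rho between DMSO counts per kb and percentage kept was 0.614 over the 48 genes and 0.600 without Eif3a. Over 7738 coding genes with a mean of at least 50 counts it was 0.188. These are descriptions across genes of the same 6 libraries, and the DMSO count enters both measures. Row length was less related to the percentage kept (rho 0.205 over the 48 genes and -0.02 over the 7738).

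Set beside other coding genes of like density, the factor genes kept slightly more in every class. In 47 factor genes the mean reached 50 counts. The 5 at 300 or more DMSO counts per kb kept a median of 24.6% and all rose in share, and the 392 other genes there kept 23.8%, with 77.0% called higher. At 200 to 300 counts per kb, 12 factor genes kept a median of 19.1%, with 7 higher and 2 lower, and 1284 others kept 15.8%, with 28.1% higher and 46.7% lower. At 100 to 200, 25 factor genes kept 14.0%, with 2 higher and 16 lower, and 3289 others kept 12.7%, with 2.13% higher and 81.5% lower. Below 100, 5 factor genes kept 14.2% and 2726 others 13.8%. The difference between factor genes and others within a class was not tested.

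**Figure D5:**
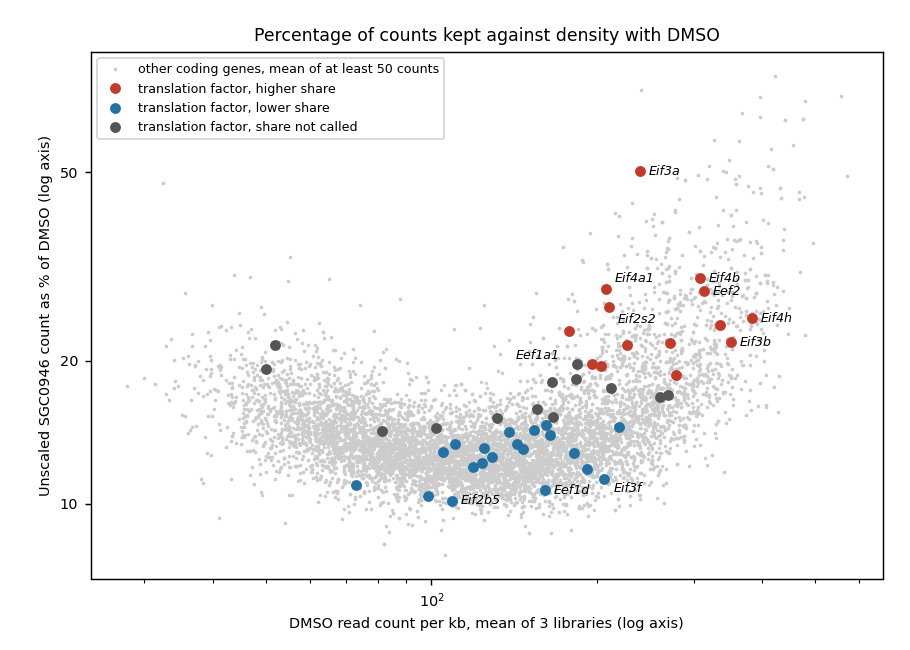
Unscaled SGC0946 count as a percentage of DMSO (log axis) against DMSO read count per kb (log axis), with factor genes as large points coloured by their share call and other coding genes with a mean of at least 50 counts as small grey points. Eif3a, at 240 DMSO counts per kb, lies above the other factor genes at 50.2%.

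Regulators and partners of the factors were counted in the same fit from a list of 42 genes, of which 37 had a row and were tested and Eef1akmt1, Eef1akmt3, Eif4ebp3, Mcts2 and Pdcd4 had none. In share, 7 rose (18.9%), 19 fell (51.4%) and 11 were not called, against 9.91% of coding genes higher and 51.1% lower, so the share that fell was near that of all genes. The list kept a median of 12.9%, and with sparse-region scaling none was higher and 31 were lower. With TMM factors 8 were higher and 16 lower, with size factors 8 and 16, and in the DESeq2 test 7 and 13. Which genes of the list changed call under these alternatives is not given here. Those that rose were Ppp1r15b, a subunit that returns phosphorylated eIF2 to its active state, Pabpc1, Larp1, Etf1, Abce1, Gspt1 and Ddit3. The rows of Etf1 (with Hspa9), Abce1 (Anapc10) and Gspt1 (LOC115488671) also overlapped other coding genes. Of the falls named below, the Eif2ak2 row also overlapped Gm26637, and the Ppp1r15a row Tulp2 and Plekha4. Ppp1r15b had 1270, 1174 and 1264 counts with SGC0946, against 3223, 3394 and 3808 counts with DMSO, kept 35.6% and changed by 1.06 ± 0.04 in log2 share (edgeR adjusted p = 9.5e-32). Its paralog Ppp1r15a went the other way, at 12.8% kept and a log2 change of share of -0.42 (edgeR adjusted p = 4.3e-04). Atf4 was not called at 18.9% kept. The genes of all 4 kinases that phosphorylate eIF2 alpha (Eif2ak1, Eif2ak2, Eif2ak3 and Eif2ak4) were among the 19 that fell, at 10.5% to 12.2% kept, as were those of the eIF4E-binding proteins Eif4ebp1 (11.9%) and Eif4ebp2 (12.6%). Mknk1, a kinase of eIF4E, kept the least of the list at 10.4%. Its paralog Mknk2 kept 16.7% and was not called, with a log2 change of share of -0.03 (edgeR adjusted p = 0.782).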

How the data were processed

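The deposited table gives whole-number read counts per region for 6 H3K79me2 ChIP-seq libraries. Per the submitters' processing notes, the authors worked on mm10 with R 3.6.3 and ChIPseeker 1.20.0, besides bedtools 2.27.0, HOMER 4.11.1 and HISAT2. The sources used here do not give which of these called or counted regions, nor how duplicate and multiply mapped reads were treated. Per the labels' protocols, 10 ng of ChIP DNA went into each library, read single-end over 50 bp to a nominal 40 M.

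Rows were joined to the GRCm38.p6 (mm10) spans of RefSeq genes by an overlap of at least 1 bp. The main test was edgeR's quasi-likelihood test (version 4.0.16, under R 4.3.3) on the counts of all regions (filterByExpr by group, Benjamini-Hochberg over all regions), on library totals with factors at 1 (23367 regions) and on unscaled counts with equal library sizes (24895). Summed shares and pair ratios were compared by exact 2-sided permutation tests (scipy 1.17.1). Chi-square per degree of freedom between libraries of a group was 1.32 to 2.38, so no pair was within sampling noise. Deviations of same-numbered samples correlated at 0.00996, -0.114 and -0.0133, and those of differently numbered samples at -0.0991 to 0.103. With 3 libraries per group this cannot decide whether the numbers pair samples, and the main tests left them unpaired. DESeq2 1.42.0 was an alternative. Standard errors were derived from each F value and fold change. Genes given with counts in every library were Eef1a1, Eef2, the 6 with the highest and 6 with the lowest change of share where the mean count reached 50, the 3 densest, and members of the widest pairs. The members, lists and tests were chosen with earlier results of these data known.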

Additional observations from a re-analysis of the deposited data

How the results depend on the processing

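With 3 libraries per group, the scaling between libraries is the main limit. The all-gene median log2 change moved from -0.29 with library totals to -0.15 with TMM factors, -0.14 with size factors, -0.17 in the DESeq2 test and -0.9999 when the sparsest 25% of regions set the scale. Lower calls among the 48 genes were 13 with TMM factors, 12 with size factors, 9 in the DESeq2 test and 35 with sparse-region scaling, which left 1 higher call. The share median was 0.00 with TMM factors (0.0021, a change of sign), 0.0143 with size factors (also a change of sign), -0.0256 in the DESeq2 test, -0.84 with sparse-region scaling, -0.16 over regions whose mean reached 50 counts, -0.17 with the row of longest overlap and -0.0923 without rows shared with other coding genes; the cause was not tested. The unscaled median was -2.72 with the longest overlap. With sparse-region scaling the log2 change turned to -0.48 (Eef1a1), -0.0814 (Eif2s2), -0.16 (Eif4h), -0.33 (Eif3b) and -0.20 (Eif4e), and calls were lost for Eef2 (0.04), Eif4b (0.13) and Eif4a1 (0.04). Eef1a1 was called higher with TMM factors (0.34), with size factors (0.36), without DMSO replicate 2 (0.24) and without SGC0946 replicate 2 (0.30). The DESeq2 test lost Eif1b (adjusted p = 0.0536) and Eif2b5. Leaving out 1 library gave 13 to 15 higher and 17 to 21 lower calls, share medians of -0.21 to -0.0939, unscaled medians of -2.76 to -2.60 with 48 lower calls each time, and a summed share difference of 0.113 to 0.130. The replicate block, which treats same-numbered samples as pairs although pairing is not known, gave 14 higher and 20 lower calls and a median of -0.13. Its exact permutation p for the summed share was 0.25, the smallest that 3 pairs allow. The summed share without Eif3a (0.0517) was added after seeing the data. Low counts limit Eef1aknmt, whose log2 change of share had a standard error of 0.45.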

Other observations

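The X chromosome, outside the chromosomes of the rule, carries 2 further initiation factor genes with a row. Eif1ax, a start site scanning factor (chrX:159372351-159376413), had 93, 92 and 109 counts with SGC0946, against 541, 533 and 603 counts with DMSO. It kept 17.5%, with a log2 change of share of 0.04 (edgeR adjusted p = 0.842). Eif2s3x, the gamma subunit of eIF2 (chrX:94208316-94212957), had 120, 129 and 86 counts with SGC0946, against 641, 706 and 747 counts with DMSO. It kept 16.0%, with a log2 change of share of -0.10 (edgeR adjusted p = 0.548). Neither share was called, and both overlapped between the groups.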
